A study of Mus musculus with 8 samples.

Results

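The 53 genes described here encode chromatin remodelers and histone modifiers of 13 classes, from the BAF and NuRD remodeling complexes and the Polycomb complexes to the enzymes that write or erase methyl groups on histone H3K4, H3K9, H3K27 and H3K79. They were chosen by gene symbol, and each was read by its brightest Affymetrix probe set, that is, the probe set with the highest mean signal over all arrays among those annotated to 1 gene. Such a probe set was found for 52 of the 53, the H3K9 methyltransferase Suv39h1 being the exception, and all 52 were bright enough to be tested, among 12529 tested genes of 18193 represented on the array. Mouse cells of C57BL/6 background were profiled while a doxycycline-inducible secondary OSKM system, with Oct4 (Pou5f1), Sox2, Klf4 and Myc as its factors, reprogrammed them towards pluripotency.

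The 4 groups were cells under CSA at day 3, cells under DMSO at day 3, cells under CSA at day 6 and cells under DMSO at day 6, with 2 arrays each that the series describes as independent repeats. All 8 cultures received doxycycline, written as 2 mg/ml in the labels, and the mouse ESC medium held 15% fetal bovine serum with leukemia inhibitory factor at 100 units/ml. CSA is cyclosporin A, an inhibitor of the phosphatase calcineurin and so of NFAT transcription factors. The labels write its dose as 10 mM, and DMSO served as the control condition. Both doses are high for cell culture as written, and their units could not be checked here. The labels do not say which cell type the reprogramming started from, and the comparison was made to find genes that differ under calcineurin-NFAT inhibition at each day. Values are log2 signals, so a difference of 1 is a doubling, and with so few arrays the precision of each difference is limited.

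Over the tested probe sets, arrays of the same group correlated at 0.968 to 0.974 and arrays of different groups at 0.918 to 0.963, so no array stood apart from its group. The epithelial marker Cdh1, the fibroblast marker Prrx1 and the reprogramming factor Pou5f1 were bright enough to be tested. The pluripotency genes Nanog, Sox2, Fut4 and Zfp42 were below the brightness filter, as were the defining keratinocyte genes Krt5 and Trp63, the pan-leukocyte gene Ptprc and the endothelial genes Pecam1, Cdh5 and Vwf. Summed signals of 7 keratinocyte markers, 5 of them bright enough to be tested, ran from 6726 to 7181 under CSA and from 4616 to 4676 in DMSO at day 3, and from 5344 to 5457 under CSA and from 3801 to 4004 in DMSO at day 6. Their mean log2 signals overlapped at day 3, with 7.69 and 7.59 under CSA and 6.79 and 7.63 in DMSO. At day 6 they did not, with 8.04 and 8.29 under CSA and 6.98 and 6.91 in DMSO. The sums of 10 early reprogramming and pluripotency markers, 6 of them tested, lay at 9023 to 9393 under CSA against 7508 to 7842 in DMSO at day 3, and at 9167 to 9598 under CSA against 13308 to 13811 in DMSO at day 6. As mean log2 signals of the same 10 markers, the groups overlapped at both days. These were 7.27 and 7.09 under CSA and 6.99 and 7.35 in DMSO at day 3. At day 6 they were 7.83 and 7.29 under CSA and 8.05 and 7.54 in DMSO. For 7 fibroblast markers, all tested, the sums were 10160 to 10337 under CSA against 9359 to 9364 in DMSO at day 3, and 21745 to 21845 under CSA against 25801 to 25926 in DMSO at day 6. The sums of 6 macrophage markers were low, at 351 to 369 under CSA against 391.8 to 466 in DMSO at day 3, and at 643 to 676 under CSA against 553 to 589 in DMSO at day 6. Those of 5 endothelial markers were 1430 to 1557 under CSA against 1534 to 1571 in DMSO at day 3, and 2063 to 2100 under CSA against 1400 to 1517 in DMSO at day 6. The part of these marker shifts in the differences below was not tested, and in bulk RNA fewer cells of a type cannot be told apart from less RNA per cell.

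Chromatin complexes set how open a gene is. BAF, the mammalian SWI/SNF complex, slides or ejects nucleosomes with ATP. NuRD couples a remodeling ATPase to histone deacetylases and mostly represses. Polycomb repressive complex 2 (PRC2) methylates H3K27 and PRC1 ubiquitinates histone H2A, and together they hold developmental genes silent. H3K9 methylation marks heterochromatin, H3K4 methylation marks promoters and enhancers in use, and H3K79 methylation accompanies transcription. Several of these enzymes are known barriers to reprogramming, such as the H3K9 methyltransferases and the H3K79 methyltransferase Dot1l, while others, such as the BAF ATPase Smarca4 and the H3K4 subunit Wdr5, are known to assist it.

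Under CSA at day 3, the 52 genes did not move as a block, but single subunits of PRC2 and NuRD did. The genes that fell, 5 in number, were the H3K27 methyltransferase Ezh2, its partner Eed, the deacetylase Hdac1 and the histone-binding proteins Rbbp4 and Rbbp7, by 0.30 to 0.54 on the log2 scale. A pair of genes rose, the second H3K27 methyltransferase Ezh1 and the H3K4 methyltransferase Kmt2d. The 7 changed genes were 13.5% of the 52, where 12.7% of all tested genes passed, so the share of changed members was near the background. By direction, the 2 that rose were 3.85% of the members against a background of 7.14%, and the 5 that fell were 9.62% against 5.52%. Members are mostly bright genes, 41 of the 52 lying above the median brightness, and among the 6265 genes above that median 19.7% passed at day 3, with 8.46% lower and 11.2% higher. The median difference of the members was 0.0048 and that of all tested genes -0.0042, with 27 members above 0 and 25 below. Without CSA repeat 1 or CSA repeat 2 of day 3, the members' median was 0.0086 and -0.015. That of all tested genes was then 0.0005 and 0.0067. All tests are from limma with Benjamini-Hochberg adjustment over the tested probe sets, and a gene is said to have risen or fallen where its adjusted p is under 0.05.

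Ezh2, the main H3K27 methyltransferase of dividing cells, had log2 signals of 10.85 and 10.54 under CSA at day 3, against 11.32 and 11.14 in DMSO. Both CSA arrays lay below both DMSO arrays, a difference of -0.54 ± 0.13 (SE, n = 2 arrays per group) with adjusted p = 0.026. Leaving out 1 array, DMSO repeat 1 or CSA repeat 2 of day 3, ended the call (adjusted p = 0.132 and 0.21). Eed, the PRC2 subunit that binds methylated H3K27, had 11.29 and 11.33 under CSA and 11.62 and 11.61 in DMSO. Its groups were far apart relative to their spread, and it fell by 0.30 ± 0.08 (adjusted p = 0.0395), a call that ended without any 1 array of day 3 (adjusted p = 0.111 to 0.192), without either DMSO array of day 6 (0.0558 and 0.0556), without the brightness filter (0.0552) and after quantile normalization (0.0593).

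Ezh1, the paralog that is known to be prominent in resting and differentiated cells, moved the other way. It had 8.80 and 8.70 under CSA at day 3, against 8.36 and 8.10 in DMSO. The CSA arrays were both higher, by 0.52 ± 0.14 (adjusted p = 0.0329). That call ended in 9 of 18 alternatives, among them quantile normalization (adjusted p = 0.0532), averaging the probe sets of the gene (0.136) and leaving out DMSO repeat 2, CSA repeat 1 or CSA repeat 2 of day 3 (0.157, 0.174 and 0.107). The PRC2 members that did not pass at day 3 were Suz12, the scaffold of the complex, at -0.15 (95% interval -0.33 to 0.03) and the accessory subunit Jarid2 at 0.02 (-0.27 to 0.31).

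Hdac1, the catalytic deacetylase of NuRD, had 12.16 and 12.26 under CSA at day 3, against 12.61 and 12.60 in DMSO. No CSA array reached a DMSO array, and it fell by 0.39 ± 0.07 (adjusted p = 0.00688). Without CSA repeat 1 of day 3 the adjusted p was 0.0727. Rbbp4, a histone chaperone subunit that NuRD shares with PRC2 and the replication-coupled assembly factor CAF-1, had 12.93 and 12.86 under CSA and 13.22 and 13.26 in DMSO. The groups did not overlap, and it fell by 0.34 ± 0.06 (adjusted p = 0.00404). Its paralog Rbbp7 had 13.39 and 13.39 under CSA and 13.65 and 13.74 in DMSO. Again the DMSO arrays were both higher, and Rbbp7 fell by 0.30 ± 0.06 (adjusted p = 0.00713).

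The brightest probe sets of Rbbp4 and Rbbp7 have IDs whose suffix marks probes that may also match other transcripts, so signal from similar transcripts cannot be told apart for them. For Rbbp4, further probe sets gave -0.38 and -0.38, both past the threshold, and one with a unique-match ID gave -0.34, which did not pass. With unique-match probe sets only, the Rbbp4 adjusted p was 0.273, and the Rbbp7 difference was -0.20 (adjusted p = 0.16). Rbbp7 also lost its call without CSA repeat 1 or CSA repeat 2 of day 3 (0.0587 and 0.0576), and Rbbp4 without CSA repeat 2 (0.0527). The 6 NuRD members that did not pass at day 3 ran from -0.25 to 0.13, and the remodeling ATPase Chd4 was at 0.05 (-0.14 to 0.24).

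Kmt2d, a large methyltransferase that places H3K4 monomethylation at enhancers, had 9.38 and 9.31 under CSA at day 3, against 8.78 and 8.70 in DMSO. The CSA arrays were both well above the DMSO arrays, a rise of 0.60 ± 0.11 (adjusted p = 0.00499), and the call was kept in all 19 alternatives run for it. Kmt2a, an H3K4 methyltransferase of developmental genes, had 8.98 and 8.60 under CSA and 8.31 and 8.21 in DMSO. Its groups did not overlap either, and its difference of 0.54 ± 0.15 stood at the edge of the threshold (adjusted p = 0.0506). It passed in 6 alternatives, among them a filter at the 60th percentile of brightness (adjusted p = 0.0361) and leaving out CSA repeat 2 of day 3 (0.0446). The shared H3K4 subunits Wdr5 and Ash2l were at -0.04 (-0.25 to 0.16) and -0.16 (-0.38 to 0.06).

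None of the 7 BAF subunits, 6 PRC1 subunits, 3 acetyltransferases, 4 measured H3K9 methyltransferases, 3 H3K9 demethylases and 2 H3K4 demethylases passed the threshold at day 3. BAF subunits ran from -0.11 for the ATPase Smarca4 to 0.34 for the DNA-binding subunit Arid1b (lowest adjusted p of the 7 was 0.0716, for Arid1a). PRC1 subunits ran from -0.36 to 0.28, H3K9 methyltransferases from -0.46 to 0.15, and acetyltransferases from 0.05 to 0.26. Their 95% intervals together reached from -1.04 to 1.09, so sizeable differences of the dimmer genes were not detectable with 2 arrays per group. At an unadjusted p under 0.05, 17 of the 52 members passed at day 3, as did 3629 of all 12529 tested genes.

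S phase and mitosis genes moved at the same day. Of 22 tested genes on this list, 17 fell under CSA at day 3 and 0 rose (5.52% and 7.14% of all tested genes). Their median was -0.63, and the summed signal was 51225 to 52572 under CSA against 76260 to 77657 in DMSO. The helicase subunit Mcm5 was at -0.98, Mcm7 at -0.69 and the mitotic kinase Aurka at -1.07. Of 5 tested histone chaperones that work at replication, all were below 0 and 2 fell, Asf1b by 0.74 and Nasp by 0.72, the second at -0.29 (adjusted p = 0.348) with its probe sets averaged. The remodeler Hells fell by 0.73 and Hat1, which acetylates new histones, by 0.48. The part of the S phase shift in the differences of the chromatin genes was not tested.

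The promoters of the PRC2 pair and of Rbbp4 are shown because Ezh2 and Rbbp4 fell and Ezh1 rose at day 3. They are the 250 bases before the annotated start, from RefSeq on GRCm38.p6, on the gene's strand: Ezh2 at chr6:47595031-47595280 (minus strand), Ezh1 at chr11:101226464-101226713 (minus strand) and Rbbp4 at chr4:129335371-129335620 (minus strand). Capitals mark matches to an E2F motif, the site of the factors that drive S phase genes, searched on both strands in 4 forms, namely TTCCCGC and also TTCGCGC and also TTGCCGC and also TTGGCGC.
Ezh2: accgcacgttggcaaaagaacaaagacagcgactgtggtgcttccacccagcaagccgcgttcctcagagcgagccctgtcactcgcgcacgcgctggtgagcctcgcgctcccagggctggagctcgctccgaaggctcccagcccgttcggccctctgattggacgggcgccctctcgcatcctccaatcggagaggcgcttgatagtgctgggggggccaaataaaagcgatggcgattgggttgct
Ezh1: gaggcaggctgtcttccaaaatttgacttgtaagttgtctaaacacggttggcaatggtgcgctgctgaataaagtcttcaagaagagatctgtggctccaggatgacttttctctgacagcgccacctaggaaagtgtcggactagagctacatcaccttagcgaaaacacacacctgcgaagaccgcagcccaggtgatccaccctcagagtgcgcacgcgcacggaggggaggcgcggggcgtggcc
Rbbp4: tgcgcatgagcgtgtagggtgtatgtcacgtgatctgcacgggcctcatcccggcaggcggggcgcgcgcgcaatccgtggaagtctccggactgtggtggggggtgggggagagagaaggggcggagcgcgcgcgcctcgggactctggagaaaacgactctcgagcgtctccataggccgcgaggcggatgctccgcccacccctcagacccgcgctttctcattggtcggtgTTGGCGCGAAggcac
Rbbp4 held 2 overlapping matches, read on the printed strand as TTGGCGC and GCGCGAA and starting 15 and 12 bases before the start. Neither Ezh2 nor Ezh1 held one of these letter strings in the window.

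The motif was found in 9.01% of 27025 genes with a promoter sequence and in 8 of 44 members with one, 18.2%. Members' promoters were richer in G and C, with a median of 68.6% against 52.8% for all genes. Among the S phase and mitosis genes, 8 of 19 held it, 42.1%. Of the members that fell at day 3, 1 of 4 with a sequence held it (Rbbp4), and of those that fell at day 6, 0 of 7 did. The 8 members with the motif had a median difference of -0.034 at day 3 and the 36 without it one of 0.019. A match of letters describes the sequence only.

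**Figure D1:**
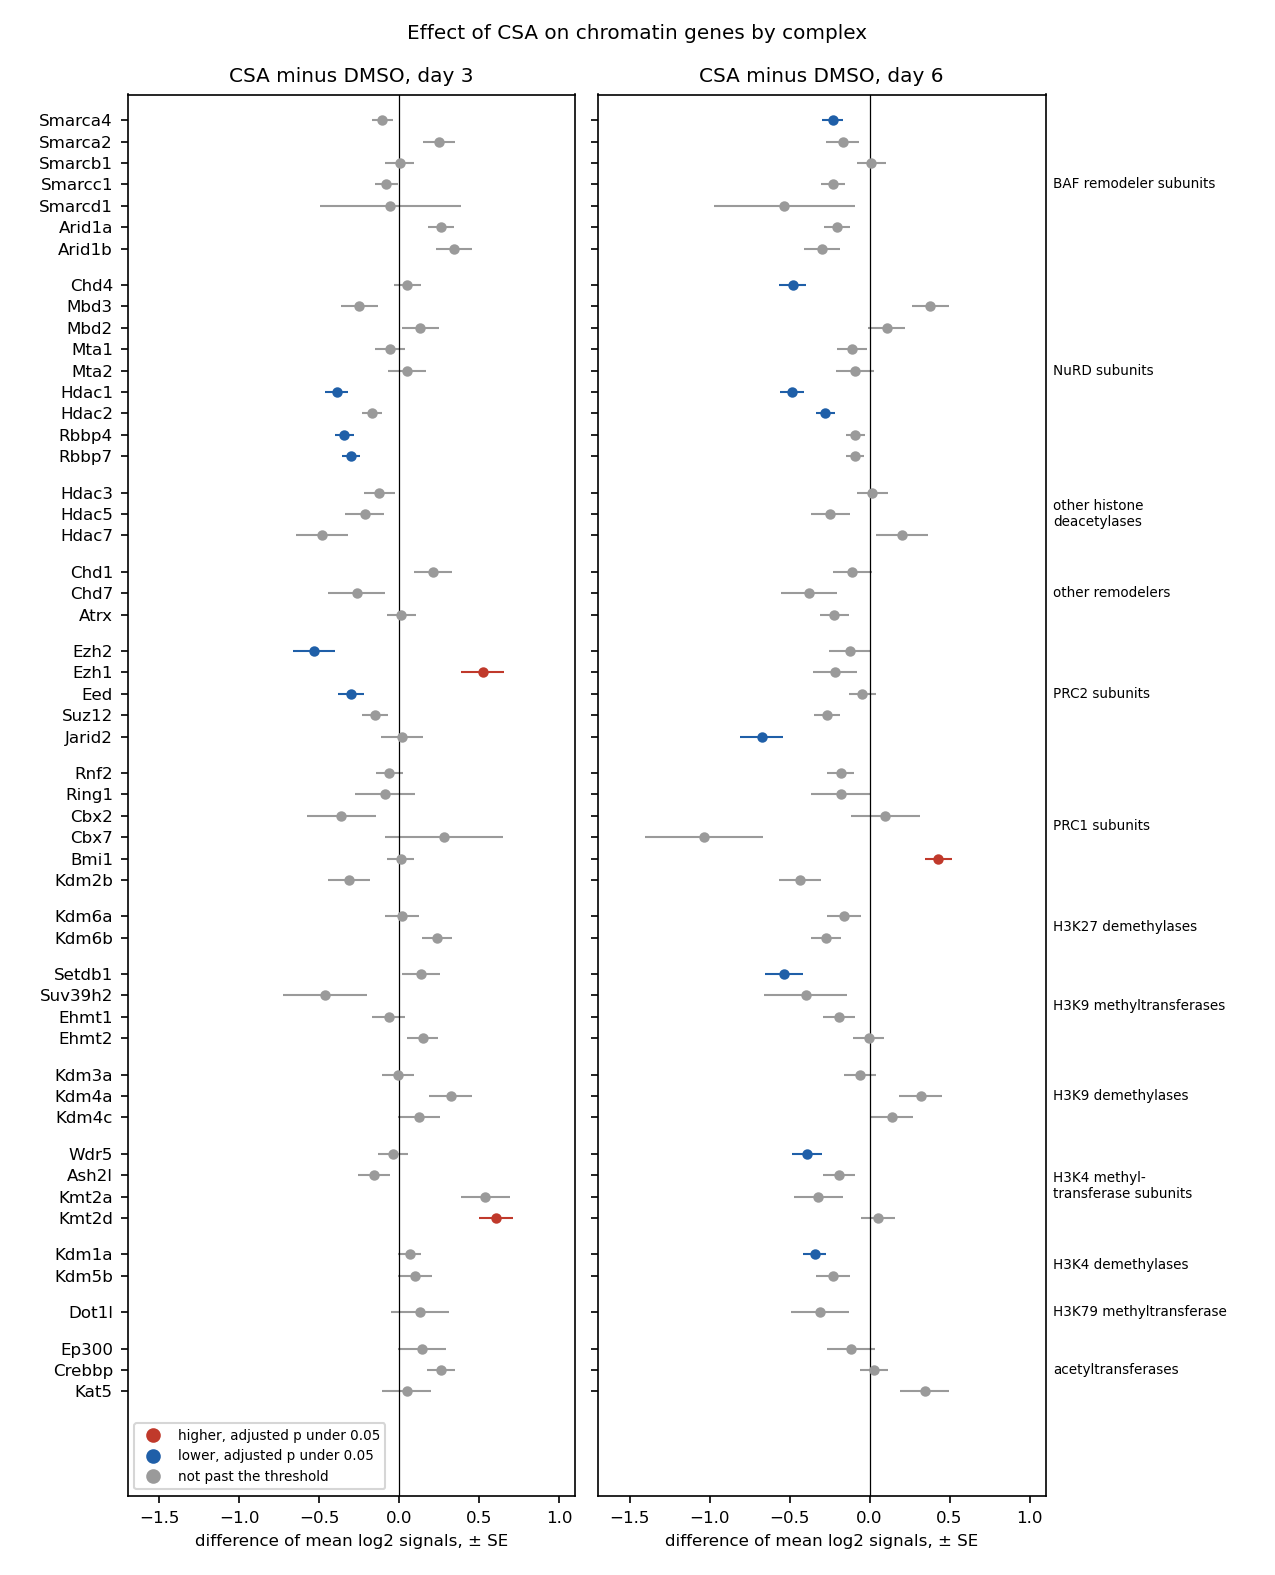
Difference of mean log2 signals, CSA minus DMSO, with its standard error for each of the 52 measured chromatin genes, ordered by complex, at day 3 (left) and day 6 (right). Colours mark genes past the threshold; at day 3, 2 are higher and 5 lower, and at day 6, 1 is higher and 8 are lower.

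At day 6 most of the changed genes were lower. Under CSA, 8 genes fell, by 0.23 to 0.68 on the log2 scale: the PRC2 subunit Jarid2, the H3K9 methyltransferase Setdb1, the NuRD members Chd4, Hdac1 and Hdac2, the H3K4 subunit Wdr5, the H3K4 demethylase Kdm1a and the BAF ATPase Smarca4. The PRC1 subunit Bmi1 alone rose. The 9 changed genes were 17.3% of the members against a background of 12.5% of all tested genes. The 8 that fell were 15.4% against 6.11%, and the 1 that rose was 1.92% against 6.41%. Among the genes above the median brightness 9.03% fell and 9.47% rose at this day. This excess of falls past the threshold was not kept without DMSO repeat 2 of day 6, a fit that leaves 1 array in its group. The negative median of the members was kept. Without DMSO repeat 1 or 2 of day 6, the members' median difference was -0.18 and -0.16 (all tested genes -0.0105 and -0.0216). Without CSA repeat 1 or 2 of day 6, it was -0.21 and -0.15 (all tested genes 0.0024 and -0.0125).

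The shift was not limited to genes past the threshold. Of the 52 members, 40 had a negative difference at day 6, with a median of -0.19, where the median of all tested genes was -0.01 and 53.3% of the brighter genes were negative. In 30 members, 57.7%, both CSA arrays lay below both DMSO arrays (30.2% of all tested genes), and in 4, 7.69%, both lay above (27.8% of all). Over all genes, groups did not overlap in either direction for 58.1%. At day 3 the same counts were 15 members below, 28.8% (28.3% of all), and 14 above, 26.9% (28.2% of all), with 56.5% of all genes in either direction. Hdac1 was the only member past the threshold at both days. Of the others, 6 passed at day 3 only, 8 at day 6 only and 37 at neither day, and 19 members were above 0 at day 3 and below 0 at day 6, against 4 that went the other way.

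Jarid2, which targets PRC2 to its sites in embryonic stem cells, showed the largest fall among the members past the threshold at day 6. It had 9.42 and 9.60 under CSA, against 10.21 and 10.16 in DMSO. The gap between the groups was several times the gap within them, and the difference was -0.68 ± 0.13 (adjusted p = 0.0086), or 1.60-fold lower. Its other probe sets, at -0.88 and -0.84, fell as well. The call ended without DMSO repeat 1, DMSO repeat 2 or CSA repeat 1 of day 6 (adjusted p = 0.0663, 0.0563 and 0.058), while the difference stayed between -0.84 and -0.58. The PRC2 core genes were at -0.12 (Ezh2), -0.22 (Ezh1), -0.04 (Eed) and -0.26 (Suz12), none past the threshold. Other Suz12 probe sets, at -0.42 and -1.89, passed, the second dim with a mean log2 signal of 6.07. Those at -0.14, -0.46 and -0.38 did not pass.

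Chd4, the remodeling ATPase of NuRD, had 10.80 and 10.80 under CSA at day 6, against 11.25 and 11.32 in DMSO. The groups were separate and Chd4 fell by 0.48 ± 0.09 (adjusted p = 0.00504). Its brightest probe set, annotated to Chd4 alone, has an ID that marks several transcripts. The brightest Chd4 probe set with a unique-match ID was dimmer, with a mean log2 signal of 9.74 against 10.67. With unique-match probe sets only, the difference was -0.19 (adjusted p = 0.346), and the call also ended without DMSO repeat 2 of day 6 (0.0565) and with the probe sets of the gene averaged (0.0781). Hdac1 had 12.30 and 12.14 under CSA and 12.74 and 12.66 in DMSO. It was again lower on both CSA arrays, by 0.48 ± 0.07 (adjusted p = 0.00189), and this call was kept in 18 of 19 alternatives. Hdac2, the second deacetylase of NuRD, had 12.25 and 12.25 under CSA and 12.55 and 12.51 in DMSO. It fell by 0.28 ± 0.06 (adjusted p = 0.0158), with another bright probe set at -0.40 that also passed, and lost its call without any 1 array of day 6 (0.0535 to 0.108) and with its probe sets averaged (0.185).

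The methyl-CpG-domain subunit Mbd3, which is debated as a barrier to reprogramming, was at 0.38 ± 0.11 at day 6, with 9.53 and 9.60 under CSA and 9.09 and 9.28 in DMSO. Its arrays did not overlap, but it did not pass (adjusted p = 0.0623). After quantile normalization it did, at 0.43 (adjusted p = 0.0391). The other NuRD members that did not pass at day 6 ran from -0.11 (Mta1) to 0.11 (Mbd2).

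Setdb1, a methyltransferase that places H3K9 trimethylation at retroelements, had 9.62 and 9.59 under CSA at day 6, against 10.06 and 10.23 in DMSO. On this probe set both CSA arrays were lower, by 0.54 ± 0.12 (adjusted p = 0.0158). The probe set, annotated to Setdb1 alone, has an ID that marks several transcripts. The brightest Setdb1 probe set with a unique-match ID turned the sign, at 0.15 (adjusted p = 0.823). It was dimmer, with a mean log2 signal of 7.12 against 9.61 for the probe set used. Another tested probe set, dimmer still at 5.66, gave -0.81 (adjusted p = 0.392) and did not pass. The call also ended without DMSO repeat 2, CSA repeat 1 or CSA repeat 2 of day 6 (0.135, 0.0555 and 0.0775) and with the probe sets averaged (0.191). The other measured H3K9 methyltransferases were at -0.40 (Suv39h2), -0.19 (Ehmt1) and -0.01 (Ehmt2), none past the threshold. Another Suv39h2 probe set, at -0.75, did pass.

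Kdm1a, an H3K4 demethylase of corepressor complexes, had 12.21 and 12.27 under CSA at day 6, against 12.54 and 12.62 in DMSO. It fell by 0.34 ± 0.07 (adjusted p = 0.0126), and its other probe set gave -0.32. With that unique-match probe set the adjusted p was 0.081, and it was 0.112 without DMSO repeat 2 and 0.0647 without CSA repeat 1 of day 6. Wdr5, the scaffold of H3K4 methyltransferase complexes, had 10.74 and 10.98 under CSA and 11.27 and 11.23 in DMSO. The CSA arrays differed among themselves by about as much as the nearer one differed from DMSO, and the difference was -0.39 ± 0.09 (adjusted p = 0.0226). A second Wdr5 probe set gave 0.01, averaging both ended the call at -0.19 (0.177), and so did leaving out DMSO repeat 1, DMSO repeat 2 or CSA repeat 1 of day 6 (0.125, 0.0958 and 0.13).

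Smarca4, the BAF ATPase, had 11.75 and 11.73 under CSA at day 6, against 11.96 and 11.98 in DMSO. The arrays of each group were close together and the groups apart, but the fall of 0.23 ± 0.07 was small and just passed (adjusted p = 0.0493), and the call ended in 10 of 19 alternatives, among them leaving out any 1 array of day 6 (0.111 to 0.217). The other 6 BAF subunits ran from -0.53 to 0.01, 5 of them below 0, and none passed. Other probe sets of Smarcc1 (-0.65) and Smarcb1 (-0.82) did.

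Bmi1, the PRC1 subunit that represses the Cdkn2a locus, had 10.99 and 10.85 under CSA at day 6, against 10.47 and 10.51 in DMSO. Both CSA arrays were higher, by 0.43 ± 0.08 (adjusted p = 0.00814), while the other Bmi1 probe set gave 0.19 (adjusted p = 0.434). The first is a call that ended without DMSO repeat 1 or CSA repeat 1 of day 6 (0.0579 and 0.0533). Rnf2, the catalytic ubiquitin ligase of PRC1, had 11.13 and 11.03 under CSA and 11.26 and 11.26 in DMSO. Its arrays did not overlap, but the difference of -0.18 (-0.37 to 0.01) did not pass. The other PRC1 subunits ran from -1.04 to 0.10, and the lowest, the dim gene Cbx7, had 6.21 and 5.98 under CSA and 6.78 and 7.49 in DMSO.

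Dot1l, the H3K79 methyltransferase, had 8.47 and 8.87 under CSA at day 6 and 9.17 and 8.79 in DMSO. The groups overlapped and the difference of -0.31 (-0.70 to 0.09) did not pass, although with its probe sets averaged it did, at -0.53 (adjusted p = 0.0436). The histone acetyltransferase Ep300 had 10.63 and 10.78 under CSA and 10.59 and 11.05 in DMSO at day 6. It overlapped too, at -0.12 (-0.45 to 0.21). At day 3 the differences were 0.13 (-0.27 to 0.52) for Dot1l and 0.14 (-0.19 to 0.47) for Ep300.

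**Figure D2:**
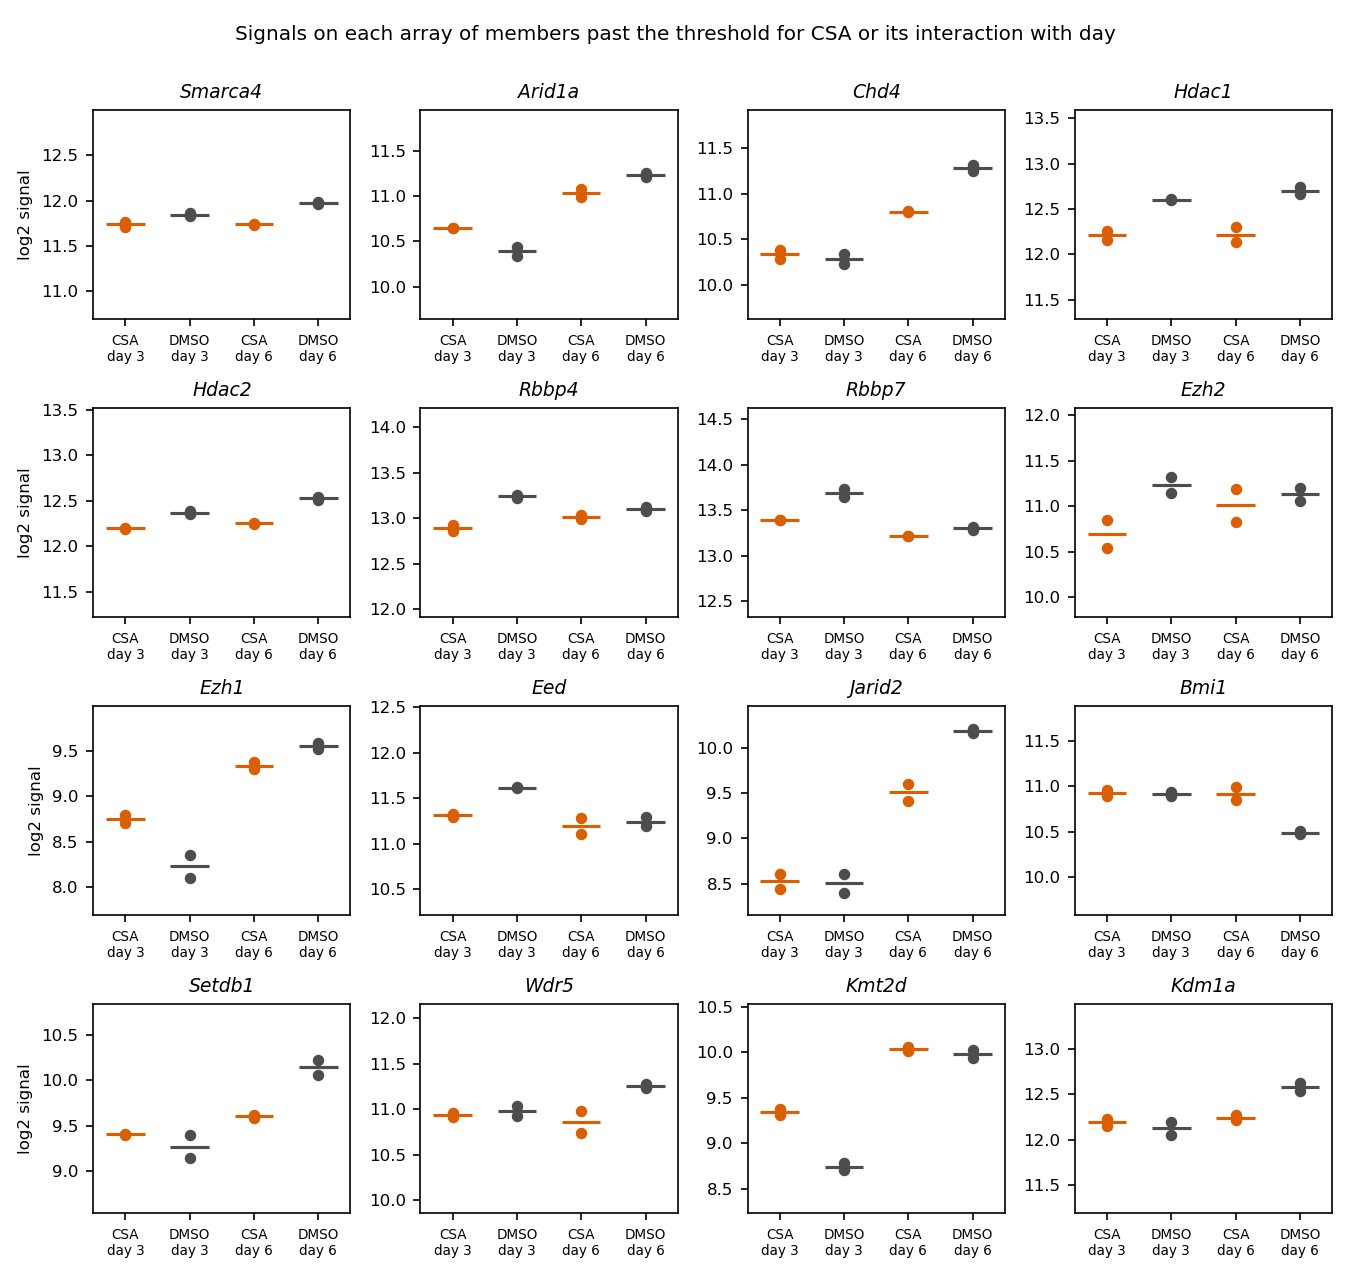
Log2 signal on each array for the 16 chromatin genes past the threshold for CSA at either day or for its interaction with day; points are arrays, lines are group means, and every panel spans the same range. Hdac1 passed as lower under CSA at both days, Ezh2, Eed, Rbbp4 and Rbbp7 at day 3, and Jarid2, Chd4, Setdb1, Wdr5 and Kdm1a at day 6, when Bmi1 passed as higher.

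The calls at both days rest on how the spread is estimated with 2 arrays per group. Without the intensity trend in limma's prior variance, 1 member passed at day 3 (Kmt2d, adjusted p = 0.049) and 0 at day 6, while 11 and 18 had an unadjusted p under 0.05. All genes lost calls in that setting as well, with 2.19% passing at day 3 and 3.38% at day 6. Unadjusted p-values in that setting were counted for the members only, here and below, so they have no background. Of the 22 S phase and mitosis genes, 4 fell under CSA at day 6 (6.11% of all tested genes, 9.03% of the brighter genes). Their median was -0.14, and their summed signal was 48718 to 49365 under CSA against 52300 to 54676 in DMSO.

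Whether the effect of CSA differed between the days was tested as the interaction, the CSA effect at day 6 minus that at day 3. The members that passed, 4 in number, were all lower at day 6: Setdb1 at -0.67 ± 0.17 (adjusted p = 0.0476), Chd4 at -0.53 ± 0.12 (0.0341), the BAF subunit Arid1a at -0.46 ± 0.11 (0.0465) and Kdm1a at -0.41 ± 0.10 (0.049). They were 7.69% of the members, where 5.79% of all tested genes passed with 3.43% in this direction and 2.36% in the other. Among genes above the median brightness 9.37% passed, with 5.59% in this direction. The members' median was -0.12 with 38 of 52 below 0. Arid1a had 10.65 and 10.65 under CSA and 10.44 and 10.34 in DMSO at day 3, and 10.98 and 11.07 under CSA and 11.21 and 11.25 in DMSO at day 6. Its CSA arrays were above DMSO at day 3 and below it at day 6, with neither day past the threshold on its own (0.26, adjusted p = 0.0716, and -0.20, adjusted p = 0.148).

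The interaction calls depended on single arrays, probe sets and settings. With unique-match probe sets only, Setdb1, then read by its dimmer probe set, turned to 0.26 (adjusted p = 0.79) and Chd4 was at -0.02 (0.966). Without any 1 array, fewer members passed, and a smaller share of all tested genes passed as well. Without the trend no member did, with 16 at an unadjusted p under 0.05, and none of all tested genes did. After quantile normalization 4 passed, but 2 of them were higher at day 6 (Mbd3 at 0.71 and Bmi1 at 0.48) and 2 lower (Chd4 and Kdm1a). Differences of Ezh1 (-0.74, adjusted p = 0.0561), Kmt2a (-0.86, 0.051), Jarid2 (-0.69, 0.0631) and Kmt2d (-0.55, 0.0661) did not pass. That Ezh2 passed at day 3 and not at day 6 is not shown to be a difference between the days, since its interaction was 0.42 (adjusted p = 0.263), and the same holds for Rbbp4 (0.26, 0.116) and Eed (0.26, 0.259).

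At day 3, some of the genes that passed at day 6 had overlapping groups and others did not. Over all tested genes, the groups of 56.5% did not overlap at day 3. Jarid2 had 8.61 and 8.45 under CSA, against 8.40 and 8.61 in DMSO. Chd4 had 10.28 and 10.38 under CSA, against 10.34 and 10.23 in DMSO. Kdm1a had 12.23 and 12.15 under CSA, against 12.05 and 12.20 in DMSO. In all of these the ranges of both groups overlapped, and so it was for Wdr5, with 10.92 and 10.96 under CSA and 11.03 and 10.92 in DMSO, and for Bmi1, with 10.89 and 10.95 under CSA and 10.89 and 10.94 in DMSO. Hdac2 was lower on both CSA arrays already at day 3, with 12.19 and 12.21 under CSA and 12.36 and 12.39 in DMSO, as was Smarca4, with 11.71 and 11.76 under CSA and 11.82 and 11.86 in DMSO. Setdb1, with 9.41 and 9.40 under CSA and 9.15 and 9.39 in DMSO, was higher on both CSA arrays. None of these genes passed at day 3, while Hdac1, described above, did.

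At day 6, of the genes that had passed at day 3, only Hdac1 passed again. Ezh2 had 11.19 and 10.83 under CSA, against 11.20 and 11.06 in DMSO, and Eed 11.29 and 11.11 under CSA, against 11.29 and 11.19 in DMSO. Both overlapped. Ezh1 had 9.38 and 9.30 under CSA, against 9.52 and 9.58 in DMSO, so its CSA arrays were now the lower ones. Rbbp4 had 13.03 and 12.996 under CSA, against 13.12 and 13.08 in DMSO, and Rbbp7 13.21 and 13.21 under CSA, against 13.29 and 13.32 in DMSO. Both stayed lower on each CSA array, by about 0.09. Kmt2d overlapped, with 10.02 and 10.06 under CSA and 10.03 and 9.94 in DMSO, and Kmt2a was lower on both CSA arrays, with 9.13 and 9.36 under CSA and 9.57 and 9.56 in DMSO. The remaining enzymes followed over days overlapped at day 3, with 11.01 and 10.97 under CSA and 10.96 and 11.15 in DMSO for Rnf2, 8.74 and 8.62 under CSA and 8.63 and 8.48 in DMSO for Dot1l, and 10.24 and 10.03 under CSA and 10.13 and 9.86 in DMSO for Ep300.

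More members differed between the days than between CSA and DMSO. In DMSO, 29 of 52 differed between day 6 and day 3, 25 higher and 4 lower at day 6. These were 55.8% of the members, where 45.7% of all tested genes passed, and the members' share that rose was 48.1% against 26.1%, and the share that fell 7.69% against 19.6%. Among genes above the median brightness 29.3% rose and 31.6% fell. The median member difference was 0.44 against 0.08 for all tested genes. Quantile normalization moved the median of all genes to -0.03, and the member median less that of all genes was 0.36 as deposited and 0.30 after it.

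In 34 members, 65.4%, both day 6 arrays lay above both day 3 arrays in DMSO (41.2% of all tested genes), and in 8, 15.4%, below (31.8%), where 73% of all genes were separate in either direction. Rises in DMSO ran through most classes. Jarid2 rose by 1.68 ± 0.13 (adjusted p = 3.05e-06), with 10.21 and 10.16 at day 6 against 8.40 and 8.61 at day 3. The alternative BAF ATPase Smarca2 rose by 1.49 ± 0.10, with 10.87 and 10.93 at day 6 and 9.46 and 9.36 at day 3, and the heterochromatin remodeler Atrx by 1.37 ± 0.09, with 11.87 and 12.12 at day 6 and 10.67 and 10.58 at day 3. For all of these the groups were separated by at least 1 log2 unit. Ezh1 (1.33), Kmt2a (1.31), Kmt2d (1.25), the H3K27 demethylase Kdm6b (1.01), Chd4 (0.998), Arid1b (0.98), Setdb1 (0.87), Arid1a (0.84) and Ep300 (0.82) rose as well. By class, 3 of 4 H3K4 methyltransferase subunits, 3 of 4 H3K9 methyltransferases, both H3K27 demethylases and both H3K4 demethylases rose. So did 3 of 5 PRC2 subunits and 3 of 7 BAF subunits. Of 6 PRC1 subunits, 5 did not pass and Bmi1 fell. Of 9 NuRD subunits, 5 did not pass, and Mbd3 and Rbbp7 fell. Of 3 H3K9 demethylases, 2 did not pass, nor did Dot1l. Among other histone deacetylases, other remodelers and acetyltransferases, 1 of 3 each did not pass. Several of the rises depended on the probe set. With probe sets averaged, Atrx was at 0.75, Ezh1 at 0.82 and Kdm6b at 0.61, all still past the threshold, and with unique-match probe sets only, Chd4 was at 0.33 (adjusted p = 0.0348). The rises of Setdb1 and Wdr5 (0.27) ended. The brightest unique-match Setdb1 probe set, dimmer than the one used, gave -0.29 (adjusted p = 0.454). The mean over Wdr5 probe sets gave -0.11 (0.335).

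The 4 members that fell in DMSO between the days were Mbd3 (-0.74 ± 0.11), Bmi1 (-0.42 ± 0.08), Rbbp7 (-0.39 ± 0.06) and Eed (-0.37 ± 0.08), with adjusted p of 0.000374, 0.00171, 0.000234 and 0.00353. Mbd3 had 9.09 and 9.28 at day 6 against 9.90 and 9.95 at day 3, and Bmi1 10.47 and 10.51 against 10.89 and 10.94. Rbbp7 no longer passed after quantile normalization (0.0783) or with unique-match probe sets (0.069). Ezh2, Hdac1, Hdac2, Smarca4 and Smarcc1 stayed within 0.16 of their day 3 level, and none of these differences passed. After quantile normalization Hdac1 (0.32), Hdac2 (0.36) and Smarca4 (0.24) did pass as higher. Over the same days, 14 of the 22 S phase and mitosis genes fell and 1 rose (19.6% and 26.1% of all tested genes). Their median was -0.49. Of 7 fibroblast markers, 6 rose (median 1.82). The part of these shifts in the members' changes was not tested.

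Under CSA, 23 of 52 members differed between the days, 22 higher and 1 lower at day 6, 44.2% against a background of 36.1% of all tested genes and 48% of those above the median brightness. The share that rose was 42.3% against 20.2% (21.3% of the brighter genes), and the median was 0.19 against 0.08. The arrays of day 6 lay above those of day 3 in 29 members, 55.8% (39.7% of all), and below in 6, 11.5% (29.4% of all), with 69.1% of all genes separate in either direction. Hdac7, a class IIa deacetylase, rose most, by 1.60 ± 0.16, with 9.37 and 9.57 at day 6 against 7.79 and 7.94 at day 3. Atrx rose by 1.14 (0.67 with its probe sets averaged), Smarca2 by 1.07 and Jarid2 by 0.98, the last with 9.42 and 9.60 at day 6 against 8.61 and 8.45 at day 3. The single fall was Rbbp7, by 0.18 (adjusted p = 0.0329), and it ended in 10 of 19 alternatives. Bmi1 (-0.00), Mbd3 (-0.10), Setdb1 (0.20), Kdm1a (0.05) and Wdr5 (-0.08) did not pass under CSA.

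Side by side, several changes between the days had smaller values under CSA than in DMSO. For Jarid2 the changes were 0.98 under CSA and 1.68 in DMSO, for Kmt2a 0.45 and 1.31, for Ezh1 0.59 and 1.33, for Chd4 0.468 and 0.998, for Setdb1 0.20 and 0.87, for Arid1a 0.38 and 0.84 and for Kdm1a 0.05 and 0.46. With unique-match probe sets only, the changes of Chd4 were 0.31 under CSA and 0.33 in DMSO. The difference of these changes is the interaction above, which Chd4, Setdb1, Arid1a and Kdm1a passed and the others did not. Hdac7 (1.60 under CSA, 0.92 in DMSO) went the other way, without passing the interaction (0.69, adjusted p = 0.125).

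**Figure D3:**
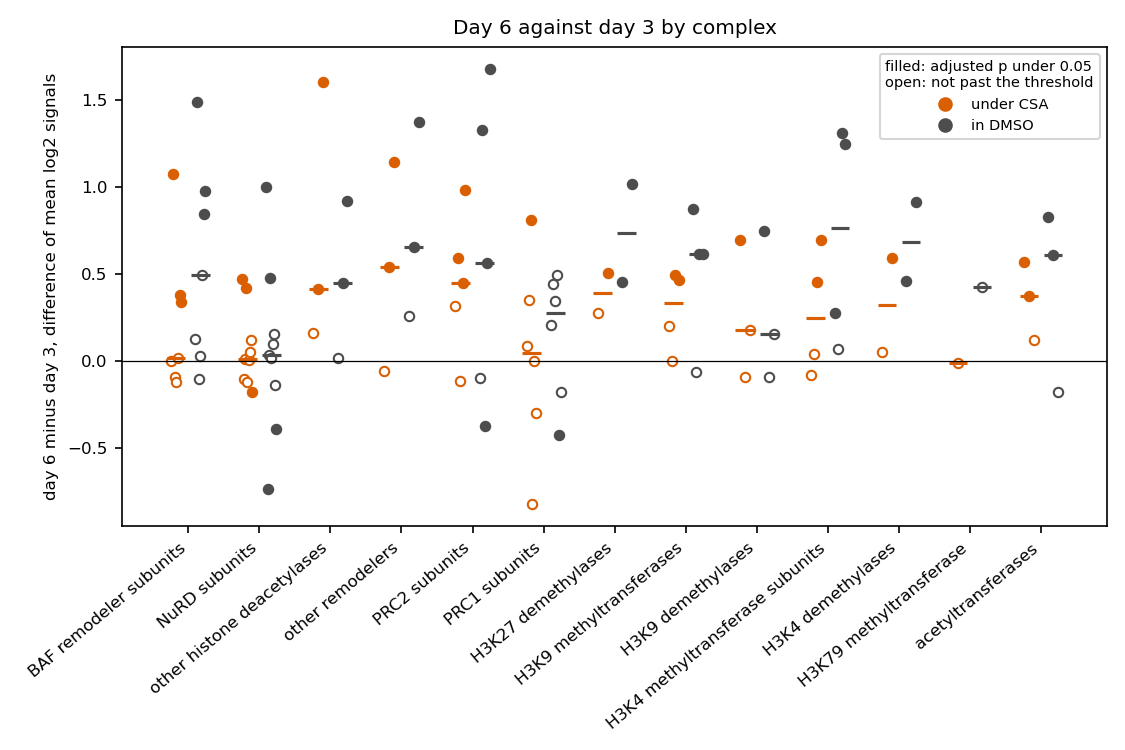
Day 6 minus day 3 difference of mean log2 signals for each chromatin gene, by class, under CSA (orange) and in DMSO (grey); filled points passed the threshold and bars are class medians. Most classes lie above 0 in both conditions, with 22 rises and 1 fall under CSA and 25 rises and 4 falls in DMSO.

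**Figure D4:**
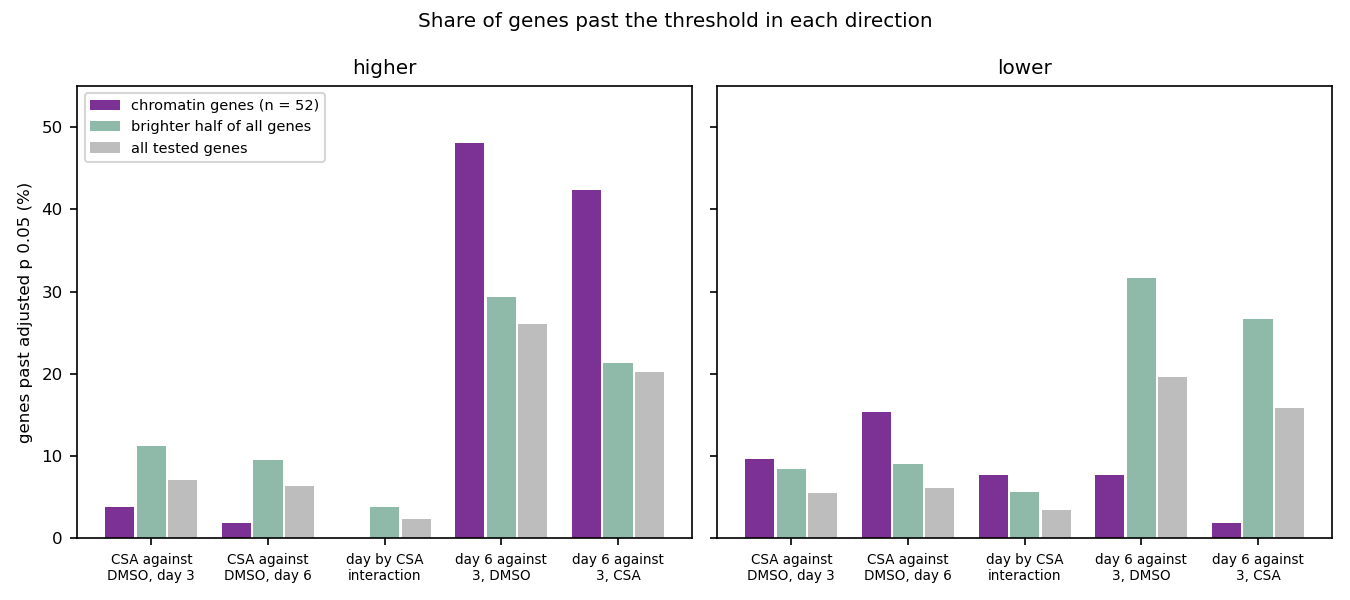
Percentage of genes past the threshold in each comparison, higher (left) and lower (right), for the 52 chromatin genes, for all genes above the median brightness and for all tested genes. The chromatin genes stand above the other bars among genes higher at day 6 than at day 3 (48.1% in DMSO, against 29.3% of the brighter genes). They also do so among genes lower under CSA at day 6 (15.4%, against 9.03%), an excess not kept without DMSO repeat 2 of day 6. Smaller gaps are seen among genes lower under CSA at day 3 (9.62%, against 8.46%) and lower for the interaction (7.69%, against 5.59%).

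Further subunits and relatives of these complexes, 114 genes of which 108 had a probe set and 105 were tested, were taken as a second list. Under CSA at day 3, 6 rose and 9 fell, 14.3% of the list against 12.7% of all tested genes, so the share was near the background. Among them, the BAF-family subunit Phf10 rose by 0.89 ± 0.08 (adjusted p = 8.79e-05), the remodeler Chd9 by 0.86 and the H3K9-related gene Jmjd1c by 0.41, while Hdac6, a mainly cytoplasmic deacetylase, fell by 0.80 ± 0.14 (0.00486), the BAF subunit Actl6a by 0.63 and the helicase Ruvbl2 by 0.57. The NuRD subunit Cdk2ap1 fell by 0.31 and the KRAB corepressor Trim28 by 0.29. With probe sets averaged, Jmjd1c was at 0.07 (adjusted p = 0.818).

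At day 6, 8 of the further genes passed, 7.62% against 12.5% of all tested genes: 7 fell, 6.67% against 6.11%, and 1, Phf10 again, rose (0.35 ± 0.08, adjusted p = 0.0167), though not with its probe sets averaged (0.07, adjusted p = 0.819). Those that fell were Ruvbl2 (-0.59), Hdac6 (-0.50), the PRC2 accessory subunit Mtf2 (-0.44), the acetyltransferase scaffold Trrap (-0.44), the H3K4 demethylase Kdm1b (-0.41), the PRC1 subunit Cbx6 (-0.37) and the H3K4 subunit Dpy30 (-0.25). Of the 105, 73 were below 0 at day 6, with a median of -0.13, and 56 at day 3, with a median of -0.04. Between the days, 45 rose and 13 fell in DMSO, 42.9% and 12.4% of the list against 26.1% and 19.6% of all tested genes (median 0.30). Under CSA, 34 rose and 7 fell, 32.4% and 6.67% against 20.2% and 15.8% (median 0.23).

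Other probe sets of the called members were also read. Of the 7 members past the threshold at day 3, 3 had another tested probe set, and for 1 of them (Rbbp4) another passed in the same direction. At day 6, 8 of 9 had another, and for 2 (Hdac2 and Jarid2) another passed in the same direction. No member had another probe set past the threshold in the opposite direction at either day.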

How the data were processed

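Total RNA was hybridised to Affymetrix 3' arrays after biotin labelling with the 3' IVT Express kit, per the labels. For each of 45037 probe sets the deposited table holds the authors' log2 signal on every array. MAS5 made the signals, per the submitters' processing notes, which give no version. Scaling target, handling of low signals, scan dates and batches: not given in the sources used here. No counts or detection calls were used here. Signals of dim probe sets carry background, which distorts their log2 differences.

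A total of 27022 probe sets, those whose mean log2 signal reached the 40th percentile (5.37), entered the tests. The platform annotation gave 1 symbol for 34945 probe sets, several for 932 and none for 9160, and genes were named only from the first kind. The plan allowed for linear signals; since the values were log2, they were used as deposited, and the pseudocounts and the floor were applied to the anti-logged signals. A linear model with 1 mean per group (4 residual degrees of freedom) was fitted to all 8 arrays with limma 3.58.1 in R 4.3.3, with empirical Bayes moderation and an intensity trend; two-sided p-values were Benjamini-Hochberg adjusted across these probe sets and called under 0.05. The pipeline was tested on simulated data. The repeats are called independent, but nothing says that they came from separate animals, so p-values may measure only the spread between these cultures. Repeat numbers were not used as pairs in the main fit. Deviations from group means correlated at -0.0034 to 0.034 between same-numbered arrays, so no large shared repeat effect was seen. Such values cannot tell whether same-numbered cultures were handled together.

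The members and lists were chosen with earlier results of these data known. Values on every array are given for members past the threshold for CSA or its interaction with day and for 1 enzyme of each complex; other members with values were taken as examples after their values were seen. Up to 3 genes with the smallest p per further list were planned to be named, and those beyond this rule were named because the counts are small. Alternatives were other brightness filters, quantile normalization, no trend, a replicate block, pseudocounts, a floor, averaging the probe sets of each gene, unique-match probe sets only (no _a, _s or _x suffix), only the arrays compared, and leaving out each array. Where a gene's brightest probe set had such a suffix, the unique-match setting read the gene by a dimmer probe set or not at all. Promoters were taken from RefSeq on GRCm38.p6.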

Additional observations from a re-analysis of the deposited data

Results flagged for a closer look

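For 4 chromatin genes the effect of CSA differed between day 6 and day 3 in limma's interaction test. The effect at day 6 less that at day 3 was -0.67 for Setdb1, -0.53 for Chd4, -0.46 for Arid1a and -0.41 for Kdm1a. On the probe sets used, the mean under CSA was below that in DMSO at day 6 for each. At day 3 the differences were 0.14, 0.05, 0.26 and 0.07 in that order, none past the threshold, and the arrays of Chd4 and Kdm1a overlapped. With unique-match probe sets only, Setdb1, then read by a dimmer probe set, turned to 0.26 (adjusted p = 0.79) and Chd4 was at -0.02 (0.966). None of the 4 calls was kept without the intensity trend.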

How the results depend on the processing

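Counts of members past the threshold depended on the estimate of the spread. Without the intensity trend they were 1 for CSA at day 3, 0 at day 6 and 0 for the interaction, and 28 in DMSO and 17 under CSA between the days. The shares of all tested genes were then 2.19%, 3.38%, 0%, 36.7% and 23.5% in this order, and 53.8% and 32.7% of the members passed between the days. For the interaction, 1 of 52 members passed without a filter (1.92%, against 3.18% of all tested genes). With a filter at the 60th percentile 12 of 50 did (24%, against 9.72%). With a pseudocount of 32 or a floor at a log2 signal of 5, 7 of 52 did (13.5%, against 6.49%). With unique-match probe sets only, 4 of 48 members passed at day 3 (8.33%, against 11.5% of all tested genes). Setdb1, then read by a dimmer probe set, had reversed signs: 0.15 at day 6, 0.26 for the interaction and -0.29 between the days in DMSO. The mean over Wdr5 probe sets was -0.11 between the days in DMSO. The cause of these changes was not tested.

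The median difference of members moved by more than its spread over pairs of arrays in these settings. At day 3 it was -0.017 after quantile normalization, -0.0574 with averaged probe sets and -0.0599 with unique-match probe sets. Between the days in DMSO it was 0.27 after quantile normalization and 0.40 with a pseudocount of 32. Between the days under CSA it was 0.24 with the filter at the 60th percentile, 0.24 with averaged probe sets and 0.29 with unique-match probe sets.

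Leaving out each array in turn gave 3 to 8 members at day 3 (3 without either CSA array of day 3), 2 to 9 at day 6 (2 without DMSO repeat 2, 1 of them higher and 1 lower, and 4 without DMSO repeat 1 or CSA repeat 1 of day 6), 0 to 3 for the interaction, 27 to 29 between the days in DMSO and 16 to 23 under CSA. The medians then ran from -0.015 to 0.00858 at day 3, -0.21 to -0.15 at day 6, -0.17 to -0.11 for the interaction, 0.35 to 0.46 in DMSO and 0.15 to 0.31 under CSA. With the repeat number as a replicate block, although no large shared repeat effect was seen, 7, 10, 4, 29 and 23 members passed in the 5 comparisons in this order. The signal over background limits dim members most, such as Cbx7 and Smarcd1.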
